A study of Mus musculus with 11 samples.

Results

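Open chromatin at the keratin genes was examined in peak lists from ATAC-seq, an assay that reads accessible DNA from where a transposase inserts, of lung epithelial cells from fetal mice. A region was counted as a keratin region where the nearest protein-coding gene body, at most 100 kb away, had a symbol of Krt followed by a number, keratin-associated protein genes not included. The gene table held 53 such genes, 27 on chromosome 11 and 26 on chromosome 15, and 63 of the 83262 regions tested were assigned to 25 of them. The 100 kb limit decided nothing, because the farthest keratin region lay 20798 bp from its gene and 0 regions nearest to a keratin gene lay beyond 100 kb. The libraries came from E17.5 lungs, from cells captured on magnetic beads that bind EpCAM, an adhesion molecule at the surface of epithelia. There were 5 Prdm3/16KO libraries, from mice with floxed Prdm16 and floxed Prdm3 (gene symbol Mecom) recombined by ShhCre, and 6 Control libraries, whose genotype beyond that word is not given in the sources used here. In the cross described in the labels both parents were Prdm3 fl/fl, the father also carried ShhCre with 1 floxed Prdm16 allele, and the mother was Prdm16 fl/fl. ShhCre is an allele of the Shh gene that drives Cre where Shh is expressed, which in the lung is the epithelium, so other cell types of the lung are not targeted. The comparison asks where chromatin is more or less open without Prdm3 and Prdm16. The labels do not say if the libraries are from separate animals, so p-values measure the spread between libraries, which may be partly technical.

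Keratins are the intermediate filament proteins of epithelia. A type I keratin pairs with a type II keratin to form a filament, and the pair in use marks the kind of epithelium: KRT8 with KRT18, joined by KRT7 and KRT19, in simple epithelia such as the lining of the lung, KRT5 with KRT14 in basal cells of stratified epithelia, KRT1 with KRT10 and KRT4 with KRT13 in the layers above, and the hair keratins in the hair shaft. The genes stand in a type I cluster on chromosome 11 and a type II cluster on chromosome 15. Krt18 is a type I gene that lies at the edge of the type II cluster beside Krt8.

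Start sites of 36 of the 53 genes were given in RefSeq promoter sequences of build GRCm38.p6 (mm10), 37 start sites in all. A peak covered the start site in all 11 libraries at 3 of them, those of Krt8 and Krt18 and the inner of 2 start sites of Krt13, and in no library at 31. The Krt7 start was covered in 3 of 5 knockouts and 5 of 6 controls. The starts of Krt5 and Krt14, the basal pair, were covered in none. The Krt20 start was covered in 1 knockout alone and the Krt77 start in 1 control alone. The sequences of the 4 start regions open in more than 1 library are given. Each runs 5′ to 3′ over 300 bases with the start site at base 251, and capitals mark matches on either strand to TATAAA (the TATA box), TGANTCA (the AP-1 motif), GGGCGG (the Sp1 motif) or CCAAT.
Krt8, chr15:102004293-102004592, minus strand: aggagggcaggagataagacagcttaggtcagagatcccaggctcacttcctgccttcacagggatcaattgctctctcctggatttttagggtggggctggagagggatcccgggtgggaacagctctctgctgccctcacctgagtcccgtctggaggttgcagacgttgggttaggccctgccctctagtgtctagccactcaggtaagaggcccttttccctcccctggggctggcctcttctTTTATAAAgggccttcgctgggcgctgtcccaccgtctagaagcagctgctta
Krt18, chr15:102027966-102028265, plus strand: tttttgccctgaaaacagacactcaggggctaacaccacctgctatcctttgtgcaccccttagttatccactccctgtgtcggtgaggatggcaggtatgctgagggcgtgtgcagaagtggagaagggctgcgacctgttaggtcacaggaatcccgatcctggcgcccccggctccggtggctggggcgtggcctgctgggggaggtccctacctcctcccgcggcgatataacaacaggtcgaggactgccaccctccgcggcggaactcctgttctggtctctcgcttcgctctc
Krt7, chr15:101412153-101412452, plus strand: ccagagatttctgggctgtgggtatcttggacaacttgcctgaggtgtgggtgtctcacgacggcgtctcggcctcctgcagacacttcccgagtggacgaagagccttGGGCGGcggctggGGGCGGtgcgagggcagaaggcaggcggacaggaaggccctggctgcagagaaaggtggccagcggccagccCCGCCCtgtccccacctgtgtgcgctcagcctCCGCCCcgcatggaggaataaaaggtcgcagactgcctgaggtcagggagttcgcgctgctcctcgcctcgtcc
Krt13, inner start, chr11:100120528-100120827, minus strand: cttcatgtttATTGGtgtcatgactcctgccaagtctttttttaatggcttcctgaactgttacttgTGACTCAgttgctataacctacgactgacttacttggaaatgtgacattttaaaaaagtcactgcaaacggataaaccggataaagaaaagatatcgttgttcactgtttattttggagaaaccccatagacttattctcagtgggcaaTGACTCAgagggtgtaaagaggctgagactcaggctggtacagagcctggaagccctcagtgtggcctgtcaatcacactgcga
The Krt7 sequence held 4 Sp1 motifs, the Krt8 sequence an overlapping pair of TATA box matches at the start site, the inner Krt13 sequence 2 AP-1 motifs and 1 CCAAT motif, and the Krt18 sequence none of these letters. Of the 37 keratin start regions, 51.4% held TATAAA, 5.41% TGANTCA, 5.41% GGGCGG and 40.5% CCAAT. The same letters were found in 13.6%, 7.81%, 35.7% and 37.4% of all 32851 promoter sequences of that length. These matches describe the letters and do not show that a factor binds. Median GC content was 48.7% over the keratin sequences and 52.7% over all promoter sequences, and its part in the shares above was not tested.

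Peak lists were deposited per library, of 72935 to 85704 peaks in knockouts and 79525 to 112297 in controls, and read depth is unknown. Peaks assigned to keratin genes numbered 60.8 ± 8.64 in knockout lists and 63.0 ± 8.32 in control lists (SD, n = 5 and 6). They were 0.0741 ± 0.00651% of the peaks in knockout lists and 0.0662 ± 0.00549% in control lists. To set lists of unequal length side by side, each was reduced to the 72935 peaks of highest -log10 p. A peak received a rank score, 1 for the strongest and towards 0 for the weakest, with 0 for no peak in the reduced list. The weakest peak kept had a -log10 p of 2.00 to 14.0 in knockouts and 6.59 to 35.6 in controls, so some peaks left out of control lists were stronger in that measure than some kept in knockout lists. Peaks within 1 kb of a gene end were used to check the cell type. The list of 10 epithelial marker genes held Epcam, Cdh1, Nkx2-1 and Foxa2, but also Krt8 and Krt18, which are themselves under study here. Of the 10, 9 had such a peak in all 11 libraries. The 10th, Sftpc, had it in 4 knockouts and 4 controls. A region inside Trp63, an airway basal marker, lay beyond the reach of this check and had a peak in every knockout and no control, as given below. Within 1 kb of a gene end, the airway basal markers Trp63, Krt5 and Krt14 had no peak in any library and Ngfr had one in all. Endothelial markers with such a peak numbered 1 of 4 in every knockout and 2 of 4 in every control, the difference being Tek, with 0 of 5 knockouts and 6 of 6 controls, while Pecam1 and Cdh5 had none in any library. The counts were 1 to 2 of 5 in knockouts and in controls for mesenchyme, 2 of 4 in knockouts and 2 to 3 of 4 in controls for blood and immune cells, and 1 to 2 of 3 in knockouts and 0 to 2 of 3 in controls for mesothelium. Cd68 had a peak in 0 of 5 knockouts and 5 of 6 controls, and Wt1 in 1 of 5 and 5 of 6, while Pdgfra, Col3a1, Tbx4, Ptprc and Upk3b had none in any library. Airway secretory and ciliated markers numbered 1 to 2 of 2 in knockouts and 2 of 2 in controls, and nerve markers 0 of 2 in all libraries. The part of these differences in the results at keratin genes was not tested.

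Of the 63 keratin regions, 15 were lower and 10 higher in the knockout at a limma adjusted p below 0.05 over all regions. Together they made up 39.7% of the keratin regions, close to the 37.8% called among all regions (20.8% lower and 17.0% higher), so keratin genes as a group did not stand out in how often they changed. The median difference of rank score, knockout minus control, was -0.0138 over keratin regions and -0.0208 over all regions. The balance of directions differed with the length of the lists, over keratin regions and over all regions. For the lists as deposited, 18 of 67 keratin regions were lower and 6 higher, against 23664 and 11461 of all 95216 regions. For lists of 36467 peaks, 4 of 31 keratin regions were lower and 5 higher, against 8978 and 8251 of all 42014 regions. A difference in such a bulk population can come from fewer cells of a type or from a change within the cells, and these cannot be told apart here. Called regions fell to 12 genes: 6 genes had lower regions only (Krt10, Krt13, Krt26, Krt78, Krt79 and Krt86), 4 had higher regions only (Krt6a, Krt7, Krt8 and Krt39), and Krt23 and Krt80 had both. At the other 13 genes with a region none was called. Every knockout lay above every control at 7 keratin regions and below at 9, which over all regions was the case at 10.9% and 12.1%.

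**Figure D1:**
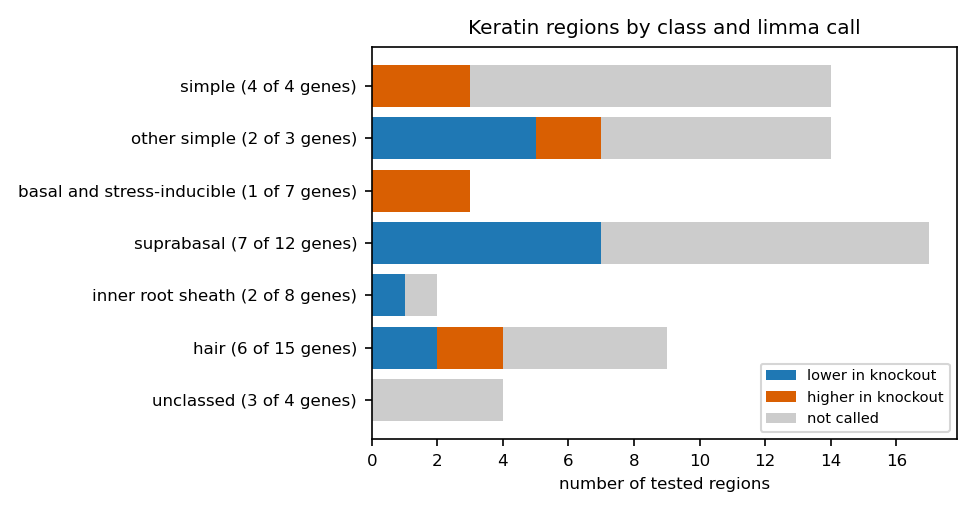
Number of tested regions (horizontal axis) in each keratin class (rows, with the genes that have a region), split by limma call into lower in the knockout, higher in the knockout and not called. The 14 simple keratin regions had 3 higher and 0 lower, the 17 suprabasal regions 7 lower and 0 higher, and all 3 basal and stress-inducible regions, all at Krt6a, were higher.

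**Figure D2:**
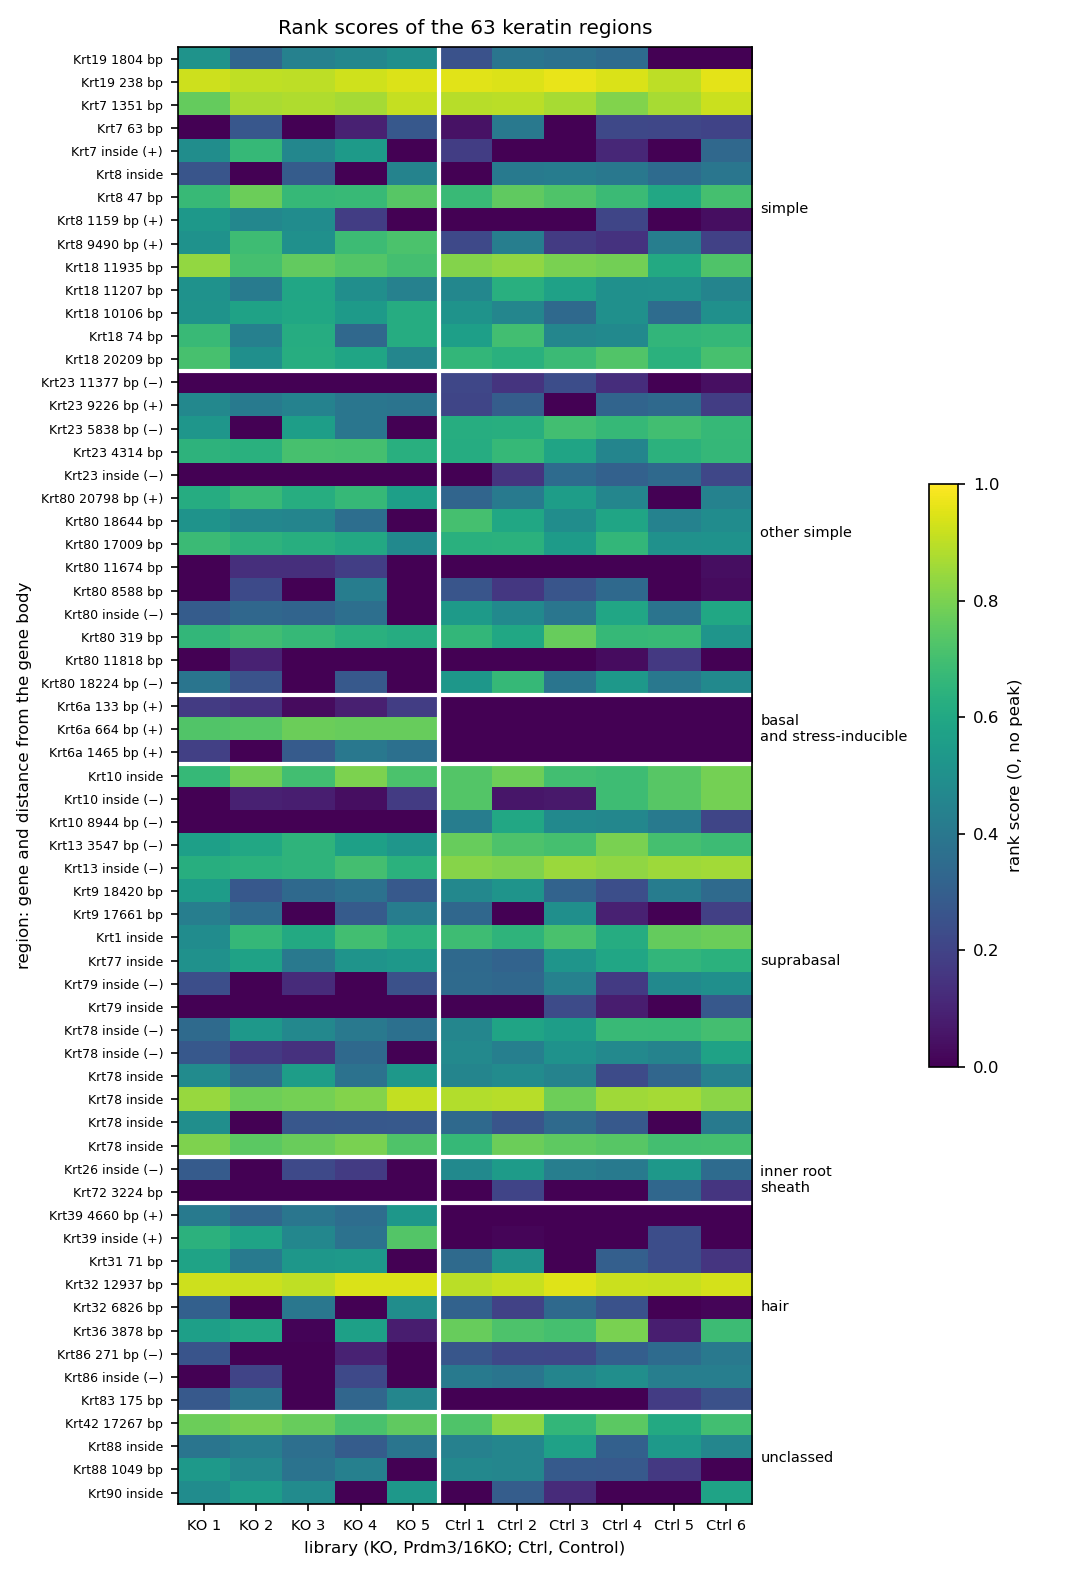
Rank score (colour, 0 to 1, 0 for no peak) of the 63 keratin regions (rows, by class, named by gene and distance from the gene body) in 5 Prdm3/16KO and 6 Control libraries (columns). A plus or minus in brackets marks regions called higher or lower in the knockout. The Krt6a rows have a peak in knockouts and none in controls.

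The simple-epithelial keratins Krt7, Krt8, Krt18 and Krt19 had 14 regions, 9 of them with a peak in all 11 libraries. That share was 64.3%, against 36.7% of the 49 regions of other keratins and 43.8% of all regions. It was not particular to simple keratins, since 11 of the 17 suprabasal regions (64.7%) also had a peak in all 11 libraries. The open start regions of the simple keratins did not differ by the test. Their 3 called changes, all higher in the knockout, lay away from the start sites: 2 upstream of Krt8 and 1 inside Krt7. Lower calls by limma among simple keratin regions numbered 0 (1 before adjustment, at p below 0.05), and on presence Fisher's exact test called 0 of the 5 regions not present in all libraries.

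Krt8 encodes the type II keratin of simple epithelia. The region over its start, 47 bp from the gene body (chromosome 15, 102004189 to 102004588), scored 0.672, 0.776, 0.669, 0.674 and 0.742 in knockouts 1 to 5, and 0.599, 0.693 and 0.757 at the lowest, median and highest control. The groups overlapped, and the difference of 0.0158 ± 0.0322 (SE) was not called (limma adjusted p = 0.732). A region 9490 bp upstream of the start (102013632 to 102014031) scored 0.509, 0.691, 0.503, 0.686 and 0.715 in knockouts, against 0.145, 0.207 and 0.429 at the lowest, median and highest control. Every knockout was above every control, and the difference was 0.356 ± 0.0714 (limma adjusted p = 0.00137). This was the simple keratin call that also held without each of the 11 libraries in turn, with differences from 0.332 to 0.388, and it was smaller but still called for the lists as deposited (0.227, limma adjusted p = 0.00674) and ranked by fold enrichment (0.159, limma adjusted p = 0.0362). A region 1159 bp upstream (102005301 to 102005700) had a peak in 4 of 5 knockouts, at 0.532, 0.462, 0.484 and 0.183, and in 2 of 6 controls, the higher at 0.209. It was called higher (0.292 ± 0.0934, limma adjusted p = 0.0248), but not without knockout replicate 1, 2 or 3 (limma adjusted p = 0.0637, 0.0605 and 0.0623) or for the lists as deposited (0.213, limma adjusted p = 0.202). Ranked by fold enrichment it was 0.136 (limma adjusted p = 0.0318). A region inside Krt8 (102003163 to 102003562) had a peak in 3 of 5 knockouts, at up to 0.447, and in 5 of 6 controls, at up to 0.419, and was not called (-0.129 ± 0.099, limma adjusted p = 0.327).

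Krt18 encodes the type I partner of KRT8, and its start lies 23874 bp from the Krt8 start, with both genes transcribed away from the stretch between them. The region over the Krt18 start (102027942 to 102028341) scored 0.677, 0.436, 0.619, 0.337 and 0.618 in knockouts and 0.46, 0.612 and 0.696 at the lowest, median and highest control. It was not called (-0.0493 ± 0.0676, limma adjusted p = 0.597), and the groups overlapped. Between the genes, 3 more regions assigned to Krt18 had a peak in all 11 libraries. The strongest, 11935 bp upstream of Krt18 (102016081 to 102016480), averaged 0.747 ± 0.0559 in knockouts and 0.760 ± 0.0843 in controls (SD, n = 5 and 6), and its neighbour at 11207 bp 0.490 ± 0.0691 and 0.521 ± 0.068. The difference was not called at either of them (-0.0138 and -0.0309, limma adjusted p = 0.813 and 0.645). The region at 10106 bp (102017910 to 102018309) scored 0.514, 0.576, 0.596, 0.543 and 0.619 in knockouts and 0.343, 0.48 and 0.515 at the lowest, median and highest control. Its difference of 0.124 ± 0.047 missed the threshold (limma adjusted p = 0.0524) and passed it without control replicate 1 or 6 (0.138 and 0.135, limma adjusted p = 0.0443 and 0.0491). It also passed in 6 other alternatives (limma adjusted p = 0.0141 to 0.048), and for the lists as deposited it was 0.0522 (limma adjusted p = 0.478). Beyond the far end of Krt18, a region at 20209 bp (102052035 to 102052434) averaged 0.576 ± 0.0999 in knockouts and 0.676 ± 0.0384 in controls (-0.0997 ± 0.0435 SE, limma adjusted p = 0.0867). Without knockout replicate 1 it was called lower (-0.133, limma adjusted p = 0.02), as it was when ranked by fold enrichment (-0.131, limma adjusted p = 0.0372).

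**Figure D3:**
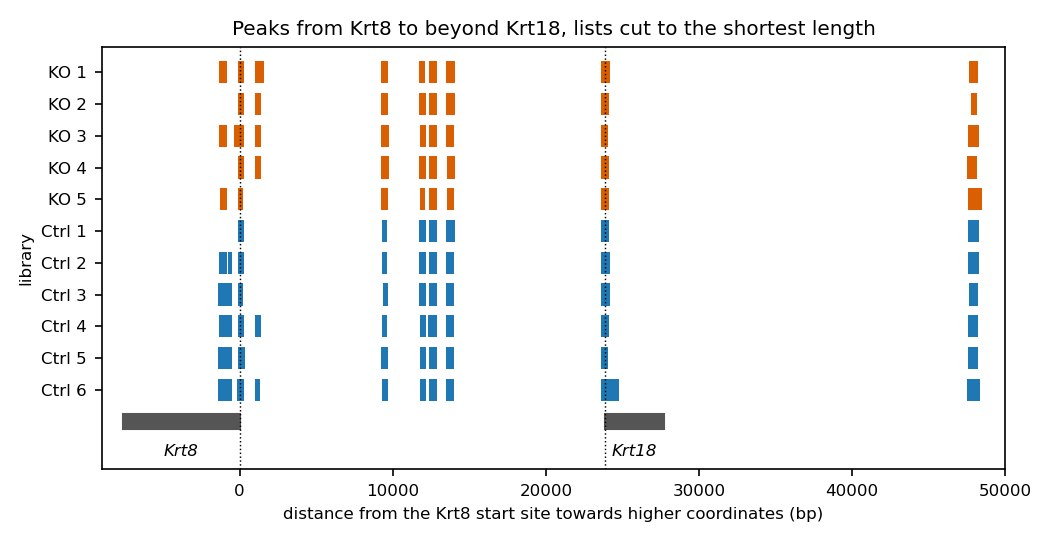
Peaks (bars) of each library (rows, 5 Prdm3/16KO above 6 Control) by distance in bp from the Krt8 start site (horizontal axis), with gene bodies in grey and start sites as dotted lines. The start sites of Krt8 and Krt18 carry a peak in all 11 libraries, and the peak nearest to 9490 bp, though present in all, has a higher rank score in each knockout (0.503 to 0.715) than in each control (0.145 to 0.429).

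Krt7, the type II keratin of simple and glandular epithelia, was most accessible 1351 bp upstream of its start (101410852 to 101411251), with 0.765, 0.874, 0.88, 0.865 and 0.911 in knockouts and 0.81, 0.882 and 0.919 at the lowest, median and highest control. The groups overlapped and the region was not called (-0.0175 ± 0.0246, limma adjusted p = 0.607). The start itself (101412140 to 101412539) had weak peaks, at up to 0.275 in 3 of 5 knockouts and up to 0.403 in 5 of 6 controls, with no call (-0.0532 ± 0.0821, limma adjusted p = 0.642). Inside the gene, 12690 bp from the start (101424893 to 101425292), the scores were 0.49, 0.672, 0.462, 0.546 and 0 in knockouts and 0, 0.0554 and 0.337 at the lowest, median and highest control. Knockout replicate 5 had no peak there and the other 4 lay above every control. This region was called higher (0.329 ± 0.108, limma adjusted p = 0.0282), but not without control replicate 2, 3 or 5 or without any of knockout replicates 1 to 4, where the limma adjusted p was 0.0528 to 0.0771. Nor was it called for the lists as deposited (0.258, limma adjusted p = 0.177) or ranked by fold enrichment (0.294, limma adjusted p = 0.175).

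Krt19 encodes a small type I keratin of simple epithelia. The region 238 bp from the gene (chromosome 11, 100145964 to 100146363) was the strongest simple keratin region, at 0.925, 0.906, 0.9, 0.928 and 0.949 in knockouts and 0.899, 0.952 and 0.965 at the lowest, median and highest control. It was not called (-0.0233 ± 0.0126, limma adjusted p = 0.162), although it was called lower without control replicate 5 (-0.0324, limma adjusted p = 0.0235), the lowest control. A second region 1804 bp away on the other side (100138806 to 100139205) scored 0.513, 0.325, 0.441, 0.462 and 0.498 in knockouts and 0, 0.301 and 0.39 at the lowest, median and highest control. Its difference of 0.22 ± 0.0842 did not pass (limma adjusted p = 0.0541) and passed without control replicate 2, 3 or 4 or knockout replicate 2 (limma adjusted p = 0.0356 to 0.0474), and in 3 other alternatives (limma adjusted p = 0.0362 to 0.0407).

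Of the 14 simple keratin regions 21.4% were called, against 48.4% of the 31 regions of basal, suprabasal, inner root sheath and hair keratins, with 10 lower and 5 higher, and 37.8% of all regions. The median difference was -0.0156 over the simple keratin regions and -0.0197 over these 31. All 4 simple keratin genes had a tested region, against 16 of the 42 genes in the other classes named. The difference between these shares was not tested, since the classes were drawn up with earlier results of these data known.

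The basal and stress-inducible keratins had tested regions at 1 of 7 genes, and all 3 of them were higher. Krt6a, a type II keratin that in skin is induced in wounded and hyperproliferative epidermis, had a strong peak in every knockout and none in any control. The region 664 bp beyond the higher-coordinate end of the gene body (chromosome 15, 101694769 to 101695168, the gene being at 101689928 to 101694305) scored 0.73, 0.738, 0.774, 0.769 and 0.768 in knockouts and 0 in all 6 controls. The groups were fully apart, with a difference of 0.756 ± 0.0439 (limma adjusted p = 3.3e-08) that kept its direction and call in each of the 24 alternatives computed for it. Over all regions, 3.89% had a peak in every knockout and no control, and of the keratin regions 3 did. The peak stood 19.8 to 23.2% of the way down the knockout lists as deposited, and the authors' fold enrichment there was 11.1 to 12.6. Its interval of 1009 to 1144 bp also gave the region 133 bp from the gene end, around a lower summit of the same interval, with 0.172, 0.145, 0.0302, 0.0888 and 0.182 in knockouts and 0 in all controls (0.124 ± 0.0366, limma adjusted p = 0.0163). That call was lost with a -log10 q of at least 5 (0.202, limma adjusted p = 0.151). A separate peak at 1465 bp was present in 4 of 5 knockouts, at 0.188, 0.289, 0.4 and 0.369, and in 0 of 6 controls (0.249 ± 0.0657, limma adjusted p = 0.00856). The 3 Krt6a regions are thus neighbours and not independent.

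Before any shortening, too, the 6 control lists held 0 peaks within 5 kb of Krt6a, and the knockout lists held 2 to 4. None of the other 6 genes of this class had a tested region. Krt14, Krt15, Krt16, Krt17 and Krt6b had 0 peaks in every deposited list. Krt5 had 1 peak in knockout replicate 4 and 1 in control replicate 6.

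**Figure D4:**
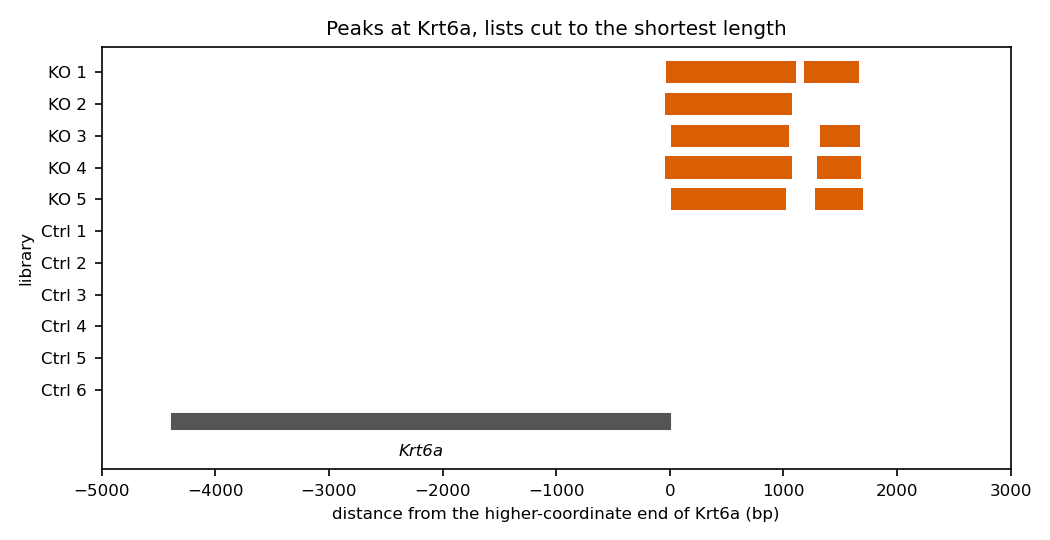
Peaks (bars) of each library (rows, 5 Prdm3/16KO above 6 Control) by distance in bp from the higher-coordinate end of the Krt6a gene body (horizontal axis), with the gene body in grey. All 5 knockouts have a peak reaching from near the gene end to about 1 kb beyond it, 4 have another beyond that, and the 6 controls have none.

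The suprabasal and other stratified keratins changed in 1 direction only in this fit, with 7 of 17 regions lower and 0 higher by limma. The 7 include the second window inside Krt10, described below, which shared peaks with its neighbour and was not called with overlapping peaks merged. Before adjustment the count at p below 0.05 was also 7 lower and 0 higher, and on presence Fisher's exact test called 1 of the 6 regions not present in all libraries. Among all regions 20.8% were lower. Krt13, a type I keratin of the suprabasal layers of mucosal stratified epithelia, had 2 regions, and both were lower. The region over its inner start (chromosome 11, 100120314 to 100120713), with 1 of the 2 AP-1 motifs shown above inside it and the other beyond its edge, scored 0.626, 0.637, 0.65, 0.699 and 0.638 in knockouts and 0.805, 0.842 and 0.862 at the lowest, median and highest control. Every library had a peak, every knockout was below every control, and the difference was -0.187 ± 0.02 (limma adjusted p = 6.22e-06). The second Krt13 region, 3547 bp from the gene (100113580 to 100113979), scored 0.563, 0.6, 0.649, 0.57 and 0.525 in knockouts and 0.687, 0.713 and 0.8 at the lowest, median and highest control (-0.149 ± 0.0313, limma adjusted p = 0.00188). The window next to it, assigned to the hair keratin Krt36, took the same peak in 8 libraries and was not called (-0.263 ± 0.152, limma adjusted p = 0.195).

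Krt10, the type I keratin of differentiating epidermis, lost a region 8944 bp from the gene (99406193 to 99406592). It had no peak in any knockout and scored 0.209, 0.445 and 0.601 at the lowest, median and highest of the 6 controls (-0.43 ± 0.0649, limma adjusted p = 1.31e-04), and it was the keratin region with a peak in every control and no knockout, a pattern seen in 2.94% of all regions. Inside Krt10, neighbouring summits gave 2 windows. The first (99385862 to 99386261) averaged 0.735 ± 0.0568 in knockouts and 0.738 ± 0.0412 in controls (SD, n = 5 and 6) and was not called (limma adjusted p = 0.938). The second (99386300 to 99386699) was called lower (-0.437 ± 0.138, limma adjusted p = 0.0234), but in 4 libraries it took the same peak as the first, and with overlapping peaks merged the difference was -0.0036 (limma adjusted p = 0.933). Its call was also lost without control replicate 1, 4 or 6 or knockout replicate 1 (limma adjusted p = 0.0503 to 0.0524), for the lists as deposited (-0.149, limma adjusted p = 0.239), with a -log10 q of at least 5 (-0.276, limma adjusted p = 0.126) and ranked by fold enrichment (-0.23, limma adjusted p = 0.332).

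Krt78, a type II keratin of stratified epithelia, had 6 regions within a long gene body that ends beside Krt8, 5 of them upstream of its listed start. The region 1319 bp downstream of that start (chromosome 15, 101952768 to 101953167) scored 0.346, 0.531, 0.466, 0.405 and 0.369 in knockouts and 0.458, 0.629 and 0.7 at the lowest, median and highest control (-0.185 ± 0.0536, limma adjusted p = 0.0147). The groups overlapped slightly. A region 12690 bp upstream of the start (101966777 to 101967176) scored 0.275, 0.172, 0.141, 0.344 and 0 in knockouts and 0.431, 0.47 and 0.577 at the lowest, median and highest control (-0.298 ± 0.0645, limma adjusted p = 0.00241). The other 4 Krt78 regions were not called, among them the strongest region of the class (101977348 to 101977747), with 0.827 ± 0.0513 in knockouts and 0.851 ± 0.0418 in controls. Krt79, a type II keratin that in mouse skin marks the upper hair follicle and sebaceous duct, had a region inside the gene (101929699 to 101930098) with a peak in 3 of 5 knockouts, at 0.239, 0.123 and 0.25, and 0.169, 0.393 and 0.496 at the lowest, median and highest control (-0.254 ± 0.075, limma adjusted p = 0.0162). Regions of Krt1, the type II partner of KRT10, of Krt77 and of Krt9 were not called, and Krt1 had 0.62 ± 0.0825 in knockouts and 0.702 ± 0.0615 in controls (limma adjusted p = 0.137).

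Of the 9 hair keratin regions 2 were lower and 2 higher, 44.4% in all, against 37.8% of all regions (20.8% lower and 17.0% higher). Krt39, a type I hair keratin, gained both of its regions. The region 4660 bp from the gene (chromosome 11, 99508100 to 99508499) scored 0.411, 0.329, 0.392, 0.358 and 0.531 in knockouts and 0 in all controls (0.404 ± 0.0511, limma adjusted p = 2.78e-05). The region inside the gene (99514132 to 99514531) scored 0.642, 0.579, 0.463, 0.376 and 0.732 in knockouts, and 2 of 6 controls had a peak, the higher at 0.238 (0.517 ± 0.0736, limma adjusted p = 8.01e-05). All knockouts lay above all controls at both. Krt86, a type II hair keratin, was lower at both of its regions. Inside the gene (chromosome 15, 101479093 to 101479492) 2 of 5 knockouts had a peak, at 0.204 and 0.222, while the lowest, median and highest control scored 0.39, 0.428 and 0.494 (-0.349 ± 0.0603, limma adjusted p = 4.16e-04). At 271 bp from the gene (101473007 to 101473406) the knockouts with a peak scored 0.261 and 0.0965, against 0.211, 0.284 and 0.404 at the lowest, median and highest control (-0.22 ± 0.0645, limma adjusted p = 0.0156).

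The highest score of any hair keratin region belonged to a region 12937 bp from Krt32 (chromosome 11, 100067711 to 100068110), at 0.927 ± 0.017 in knockouts and 0.923 ± 0.018 in controls (SD, n = 5 and 6, limma adjusted p = 0.806). The other uncalled hair regions, at Krt31, Krt32, Krt36 and Krt83, had differences from -0.263 to 0.219. Of the inner root sheath keratins, which form the sheath that moulds the hair shaft, Krt26 had a region inside the gene (99329601 to 99330000) with 0.287, 0, 0.223, 0.175 and 0 in knockouts and 0.349, 0.451 and 0.549 at the lowest, median and highest control (-0.32 ± 0.0679, limma adjusted p = 0.00207). All knockouts were below all controls. The Krt72 region had a peak in 0 of 5 knockouts and 3 of 6 controls and was not called (limma adjusted p = 0.148).

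**Figure D5:**
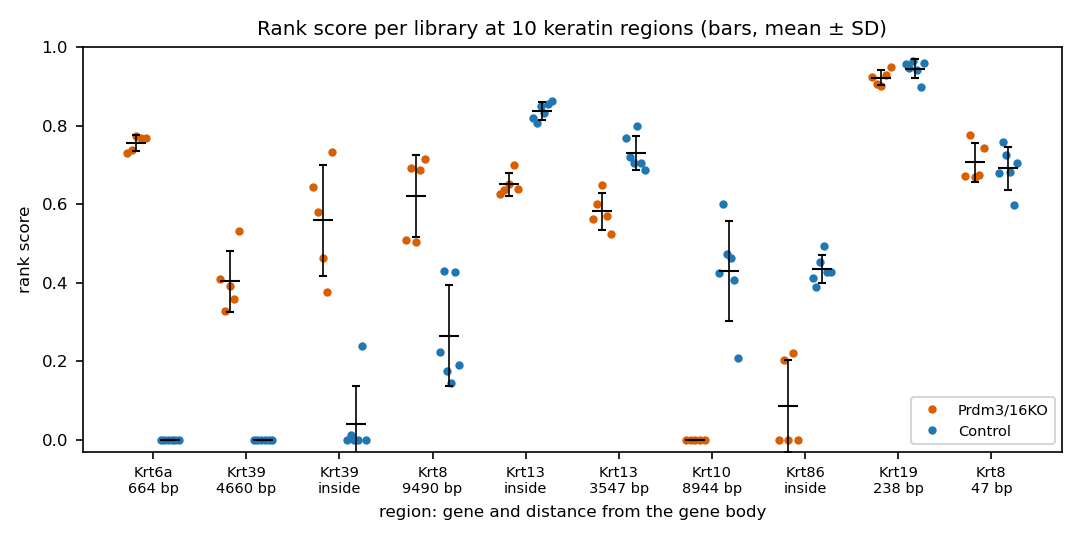
Rank score (vertical axis) of each library at 10 keratin regions (named by gene and distance from the gene body), 5 Prdm3/16KO left and 6 Control right of each pair, with mean and SD. At Krt6a, Krt39 and Krt8 (9490 bp) every knockout lies above every control, at Krt13, Krt10 and Krt86 below, and the groups overlap at the regions of Krt19 (238 bp) and Krt8 (47 bp).

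Krt23 and Krt80, keratins outside the core simple set, held losses and gains side by side. Krt23 is a type I gene. Its region 5838 bp from the gene (99471935 to 99472334) scored 0.527, 0, 0.562, 0.393 and 0 in knockouts and 0.624, 0.67 and 0.699 at the lowest, median and highest control (-0.368 ± 0.0991, limma adjusted p = 0.00962). A region inside the gene (99489305 to 99489704) had no peak in any knockout and one in 5 of 6 controls, at up to 0.35 (-0.228 ± 0.0641, limma adjusted p = 0.0124). A weaker one at 11377 bp likewise had a peak in 0 of 5 knockouts and 5 of 6 controls (-0.129 ± 0.0469, limma adjusted p = 0.0447). Between them, the region at 9226 bp (99468547 to 99468946) scored 0.467, 0.407, 0.443, 0.392 and 0.386 in knockouts and 0, 0.25 and 0.341 at the lowest, median and highest control (0.194 ± 0.0653, limma adjusted p = 0.0314).

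Krt80, a type II keratin found in many differentiating epithelia, had 9 regions. At 18224 bp from the gene (chromosome 15, 101388186 to 101388585) the scores were 0.388, 0.256, 0, 0.28 and 0 in knockouts and 0.391, 0.503 and 0.669 at the lowest, median and highest control (-0.315 ± 0.0819, limma adjusted p = 0.00792). Inside the gene (101368982 to 101369381) they were 0.291, 0.334, 0.322, 0.364 and 0 in knockouts and 0.385, 0.509 and 0.594 at the lowest, median and highest control (-0.235 ± 0.0734, limma adjusted p = 0.0219). At both regions every knockout was below every control. In lists of 36467 peaks neither was called (-0.0775 and -0.0765, limma adjusted p = 0.254 and 0.153), and the region inside the gene was not called when ranked by fold enrichment (-0.0924, limma adjusted p = 0.156). On the other side, 20798 bp from the gene (101327317 to 101327716), the knockouts scored 0.618, 0.675, 0.625, 0.672 and 0.566 and the controls 0, 0.426 and 0.555 at the lowest, median and highest (0.266 ± 0.0814, limma adjusted p = 0.0198), a call not made for the lists as deposited (0.183, limma adjusted p = 0.172). The region 319 bp from the gene end (101370281 to 101370680), the highest of Krt23 and Krt80 on average over the 11 libraries, had means of 0.656 ± 0.0298 in knockouts and 0.65 ± 0.0829 in controls (SD, limma adjusted p = 0.917). Krt20, the third gene of this class, had no tested region. Of the unclassed keratins Krt42, Krt88 and Krt90 none of 4 regions was called by limma (0 before adjustment at p below 0.05, 0 by Fisher's exact test), and the strongest, 17267 bp from Krt42, averaged 0.762 ± 0.0302 in knockouts and 0.711 ± 0.0754 in controls.

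Presence alone, without ranks, gave fewer calls. In Fisher's exact test, adjusted by Benjamini-Hochberg, 4 of the 36 keratin regions not present in all libraries passed, 3 in favour of knockouts and 1 in favour of controls, against 6.93% and 5.24% of such regions overall. They were the Krt6a regions at 133 and 664 bp, the Krt39 region at 4660 bp and the Krt10 region at 8944 bp (Fisher adjusted p = 0.0178 each, the value of complete separation). Of the 80 keratin windows found in the reduced lists, 17 had a peak in only 1 or 2 libraries and were not tested. Of the 28 keratin genes with no tested region, 20 had no peak in any deposited list. Among them were Krt27, Krt28 and Krt73 of the inner root sheath, and Krt75, a companion layer keratin placed in the same class. The hair keratins Krt34, Krt35, Krt81, Krt82 and Krt84 were also among them.

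Genes that work with keratins were compared through 4 lists. From each, the 2 regions with the smallest p are named, so these do not represent the list. Over all regions, 3.89% had a peak in every knockout and no control, and 2.94% in every control and no knockout. Filament linkers, the plakins, desmosomal proteins and hemidesmosomal integrins that anchor keratin filaments, showed 23 lower calls and 24 higher ones among 108 regions (21.3% and 22.2%), against 20.8% and 17.0% of all regions. A region 7553 bp from Itga6, the hemidesmosomal integrin alpha subunit, scored 0.772 ± 0.0412 in knockouts and had no peak in controls (SD, n = 5, limma adjusted p = 3.55e-08), and a region inside Dst, which encodes the plakin of hemidesmosomes, scored 0.605 ± 0.0514 in knockouts and had no peak in controls (limma adjusted p = 3.71e-07). Of the 17 regions of cornified envelope genes, 2 were lower and 2 higher. The region nearest to Sprr1a averaged 0.814 ± 0.0118 in knockouts and 0.67 ± 0.0696 in controls (limma adjusted p = 0.00237), and a region in the Lor body 0.407 ± 0.0738 and 0.624 ± 0.06 (limma adjusted p = 0.00224), a call not made with overlapping peaks merged (-0.0331, limma adjusted p = 0.33), ranked by fold enrichment (-0.0407, limma adjusted p = 0.621) or in lists of 36467 peaks (0.115, limma adjusted p = 0.163). Other intermediate filament genes had 10 lower and 9 higher of 71 (14.1% and 12.7%). Among them a region in the lens filament gene Bfsp1 scored 0.562 ± 0.0734 in knockouts and had no peak in controls (limma adjusted p = 1.24e-06), and a region 66357 bp from Synm, for synemin, had none in knockouts and 0.469 ± 0.0496 in controls (limma adjusted p = 4.1e-06). Among 109 regions at genes of transcription factors known to regulate keratins, 26 were lower and 19 higher (23.9% and 17.4%). The region named inside Trp63 (chromosome 16, 25816737 to 25817136), the master regulator of stratified epithelia, scored 0.853, 0.808, 0.839, 0.885 and 0.818 in knockouts and had no peak in the 6 controls (0.84 ± 0.0434 SE, limma adjusted p = 1.59e-08). A region 79350 bp from Klf4, a factor of epidermal differentiation, scored 0.627, 0.722, 0.791, 0.84 and 0.775 in knockouts and had no peak in controls (0.751 ± 0.0511, limma adjusted p = 1.06e-07).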

How the data were processed

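One peak list per library was used, 11 in all. Per the submitters' processing notes, MACS2, DiffBind 3, deepTools and the mm10 build were involved, with no roles given; no aligner or option is given in the sources used here. Units were read from the layout and values. The fold enrichment (a ratio over background) and the -log10 p and -log10 q are the authors' deposited values per peak. The deposited score and the summit offset are also the authors'; the score was not used. Lists were cut to 72935 peaks by -log10 p. Windows of 400 bp on summits, best rank kept, were tested with a peak (at least 100 bp overlap) in at least 3 libraries, by limma 3.58.1 (trend, robust, genotype only) in R 4.3.3, with Benjamini-Hochberg adjustment at 0.05 over 83262 regions, and by Fisher's exact test on presence over 46753. The fit was tested on simulated data. Regions went to the nearest of 21887 protein-coding gene bodies (RefSeq, GRCm38.p6), inside several to the shortest. Other steps used pandas 2.3.3, numpy 2.4.6, matplotlib 3.10.9 and scipy 1.17.1 in Python 3.11.15. Members, classes and lists were chosen with earlier results of these data known. Regions named are all of Krt7, Krt8, Krt18 and Krt19, the 20 other called regions with the smallest p, the highest of each class and 2 per partner list; others named were chosen after their values were seen. Depth is unknown. No batch is named in the labels, and one following genotype cannot be told apart from it. Alternatives are given in the closing section.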

Additional observations from a re-analysis of the deposited data

Results flagged for a closer look

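Among 96 sets of 5 knockout or 6 control values checked for a library far from the others, 5 were marked. Sets with 0 in every library could not be marked, so this number cannot be set against the number expected by chance. The Krt80 region inside the gene had no peak (0) in knockout replicate 5, against 0.291 to 0.364 in the other knockouts. The Krt39 region inside the gene scored 0.238 in control replicate 5, against 0 to 0.0119 in the other controls. The Krt8 region 1159 bp from the gene scored 0.209 in control replicate 4, against 0 to 0.0357 in the others, and the region inside Krt8 had no peak (0) in control replicate 1, against 0.35 to 0.419. The Krt19 region 238 bp from the gene scored 0.899 in control replicate 5, against 0.942 to 0.965 in the other controls.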

How the results depend on the processing

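Of the 31 called regions among the 46 named, 31 kept direction and call with scores centred per library, with both other overlap minimums, with regions in at least 2 libraries and without limma's trend and robust options, and 28 to 31 did with any single library left out. The number was 27 for the lists as deposited and ranked by fold enrichment, 29 with a -log10 q of at least 5 and with overlapping peaks merged, 26 with the replicate block and 13 by presence. It was 14 of the 17 that had a value in lists of 36467 peaks, and 30 of 30 with regions in at least 5 libraries. The number of keratin regions called was 13 to 17 lower and 7 to 12 higher with single libraries left out. For the lists as deposited there were 6 higher, and the median difference was -0.0801 over keratin regions and -0.0543 over all regions. For lists of 36467 peaks there were 4 lower and 5 higher, of which 3 lower and 2 higher in basal, suprabasal, inner root sheath and hair keratins. With presence in place of the score there were 3 lower and 5 higher, with 1 lower in those classes; where every library has a peak, presence cannot differ. Among simple keratins, higher regions numbered 1 for the lists as deposited, 5 with a -log10 q of at least 5, with overlapping peaks merged and with centred scores, 0 by presence, and 1 to 4 with single libraries left out. Lower ones numbered 1 for the lists as deposited and ranked by fold enrichment, and 0 to 1 with single libraries left out. Fisher's exact test favoured controls at 2 keratin regions for the lists as deposited. Without any of the 6 controls in turn it favoured knockouts and controls at 0, since complete separation could no longer pass, and without a knockout the counts were 3 to 4 and 1. The Krt32 region 12937 bp from the gene turned to -0.0843 and was called when ranked by fold enrichment, and the Lor region turned to 0.115, not called, for lists of 36467 peaks; the cause was not tested. No clear pairing by replicate number was seen. Correlations of deviations ran from -0.023 to 0.139 for same-numbered libraries and from -0.084 to 0.081 for differently numbered ones. With the replicate block, 12 keratin regions were lower and 9 higher.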
